A study of Mus musculus with 18 samples.

Results

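Planar cell polarity genes were followed in the dorsal telencephalon, from which the neocortex develops. The tissue came from mouse embryos of stage E13.5, in days of gestation: 4 embryos homozygous for an Insm1 knockout, 6 heterozygous for it and 8 wildtype, with 1 whole-transcript array each. Insm1 encodes a zinc finger transcription factor of newly forming neurons and endocrine cells, and the study searched for its target genes. How the mutant allele was made, the strain, and whether embryos of a genotype shared a litter are not given in the sources used here, so the p-values speak only of spread among these samples. Nothing in the labels speaks of sorted cells or of pooling, and each array is taken as an embryo of its own. In RNA of a whole tissue, a lower signal can mean fewer cells of a type or less RNA per cell, which cannot be told apart here.

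The set was named as 10 genes: Celsr1, Celsr2, Celsr3, Vangl1, Vangl2, Prickle1, Prickle2, Fat4, Dchs1 and Scrib. A gene counted as measured when a probe set with an identifier of 6700000 or above carried its symbol and no other. That held for 5 genes with 1 probe set each, Celsr1, Celsr3, Vangl1, Vangl2 and Scrib, of 14807 genes and 16661 probe sets in all. Celsr2, Prickle1, Prickle2, Fat4 and Dchs1 had none and were not analysed here. The genes were chosen by earlier results of these same arrays, the log2 differences between homozygous and wildtype embryos, in which Celsr3 was lower. The homozygous against wildtype values of the members are therefore a description and carry no test. The 6 heterozygous arrays had no part in the choice and were tested against wildtype in the fit over all probe sets, but that comparison uses the same 8 wildtype arrays and is not independent of the choice.

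Planar cell polarity is the alignment of cells within the plane of a tissue. Seven-pass cadherins of the Celsr family bind each other across cell borders, the membrane proteins Vangl and Frizzled take opposite sides of the cell, and Prickle and Dishevelled act beneath them on the cytoskeleton. In the developing forebrain the same proteins are known for guiding axon tracts, with Celsr3 and Fzd3 the best studied pair, and Celsr1 is known from progenitor cells. Vangl2 and Scrib are needed to close the neural tube.

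In GRCm38.p6, Celsr3 lies on chr9:108826023-108852969 and Celsr1 on chr15:85898758-86034223. Scrib is on the same chromosome as Celsr1, at chr15:76047162-76069784. Vangl1 lies on chr3:102153583-102204744 and Vangl2 on chr1:172000960-172027318. Upstream sequence of Celsr3, the member that differed most, and of Vangl2, a membrane partner that differed little, is shown for comparison as the 250 bases before the RefSeq start site, read 5′ to 3′ on the gene's strand. Capitals mark the E box CAGNTG on either strand, a site class of proneural basic helix-loop-helix factors. The windows are chr9:108825795-108826044 on the plus strand for Celsr3 and chr1:172027296-172027545 on the minus strand for Vangl2, and the start site used by the RefSeq table lies just inside the outer end of each gene.
Celsr3: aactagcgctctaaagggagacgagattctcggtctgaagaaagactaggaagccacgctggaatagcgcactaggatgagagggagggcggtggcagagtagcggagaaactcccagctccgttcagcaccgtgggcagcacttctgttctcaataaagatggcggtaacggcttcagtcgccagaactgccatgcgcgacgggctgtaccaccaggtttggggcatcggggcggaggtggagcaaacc
Vangl2: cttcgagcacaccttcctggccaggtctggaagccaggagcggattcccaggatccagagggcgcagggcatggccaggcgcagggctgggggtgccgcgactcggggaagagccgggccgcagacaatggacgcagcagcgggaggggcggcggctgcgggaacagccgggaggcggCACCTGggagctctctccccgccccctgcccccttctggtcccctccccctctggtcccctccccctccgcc
The Celsr3 window held 0 such sites and the Vangl2 window held 1, which begins at position -72, counted back from the start site. Of 32851 RefSeq windows of this length, 44.8% held at least 1. The base composition of the windows was 58.0% G and C for Celsr3 and 73.6% for Vangl2. These counts describe the letters of the windows and say nothing of binding.

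Each array gives a log2 signal for every probe set, and 1 unit of it is a 2-fold change. Levels of different probe sets are not compared, since probes differ in brightness. Insm1 itself was at 3.61, 3.54, 3.23 and 2.87 in the 4 homozygous embryos, below all heterozygous embryos (4.02 to 5.17) and all wildtype embryos (4.84 to 5.77). No source used here says which part of the gene the knockout changes, so where its probes lie relative to that is unknown. As a measure of scale, the 75th percentile of each array ran from 4.67 to 4.75 in homozygous, 4.50 to 4.78 in heterozygous and 4.67 to 4.87 in wildtype embryos, with heterozygous replicate 6 lowest. Homozygous replicate 2 and heterozygous replicate 6 also stood apart in 9 hypoxia response genes: their mean level was 4.65 and 4.69, against 3.28 to 3.38 in the other homozygous embryos, 3.25 to 3.45 in the other heterozygous embryos and 3.13 to 3.52 in wildtype embryos. Results are given with and without these arrays where they differ. Of the marker lists, apical progenitor genes had array means between 6.51 and 6.89, and ventral telencephalon and interneuron genes between 1.33 and 2.34.

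Of the seven-pass cadherins, Celsr3 was lower in homozygous embryos. Its level was 5.06, 4.53, 4.69 and 4.62 in homozygous replicates 1 to 4. The heterozygous embryos ran from 4.87 over a median of 5.02 to 5.41, and the wildtype embryos from 5.10 over a median of 5.32 to 5.61. All 4 homozygous embryos lay below all 8 wildtype embryos, by a narrow margin in homozygous replicate 1, which overlapped the heterozygous range.

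The mean of Celsr3 was 4.72 ± 0.23 in 4 homozygous embryos (SD). It was 5.11 ± 0.23 in 6 heterozygous embryos and 5.35 ± 0.17 in 8 wildtype embryos. The order of the means followed the number of mutant alleles. The difference between the homozygous and wildtype log2 means was -0.62 (SE 0.12, 95% interval -0.87 to -0.38). Converted from log2, this difference is a ratio of 64.9%. Of the 5 members, 1 (Celsr3) was called lower in this comparison. Over all probe sets 0.504% were called lower and 0.564% in either direction, at a limma adjusted p under 0.05. The call is the value that brought the gene into view, and nothing is read from it.

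Since the call itself chose the gene, its values under other settings are given as a description too. Without homozygous replicate 2, 3 or 4 the difference was -0.56, -0.61 or -0.59, and the call ended (limma adjusted p = 0.094, 0.077 or 0.059). Without homozygous replicate 1 it was -0.74. With homozygous replicate 2 and heterozygous replicate 6 both left out it was -0.56 (adjusted p = 0.068). After a further quantile normalization it was -0.55 (adjusted p = 0.051). The plot of Celsr3 by setting gives the other values, from which no stability is read.

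**Figure D1:**
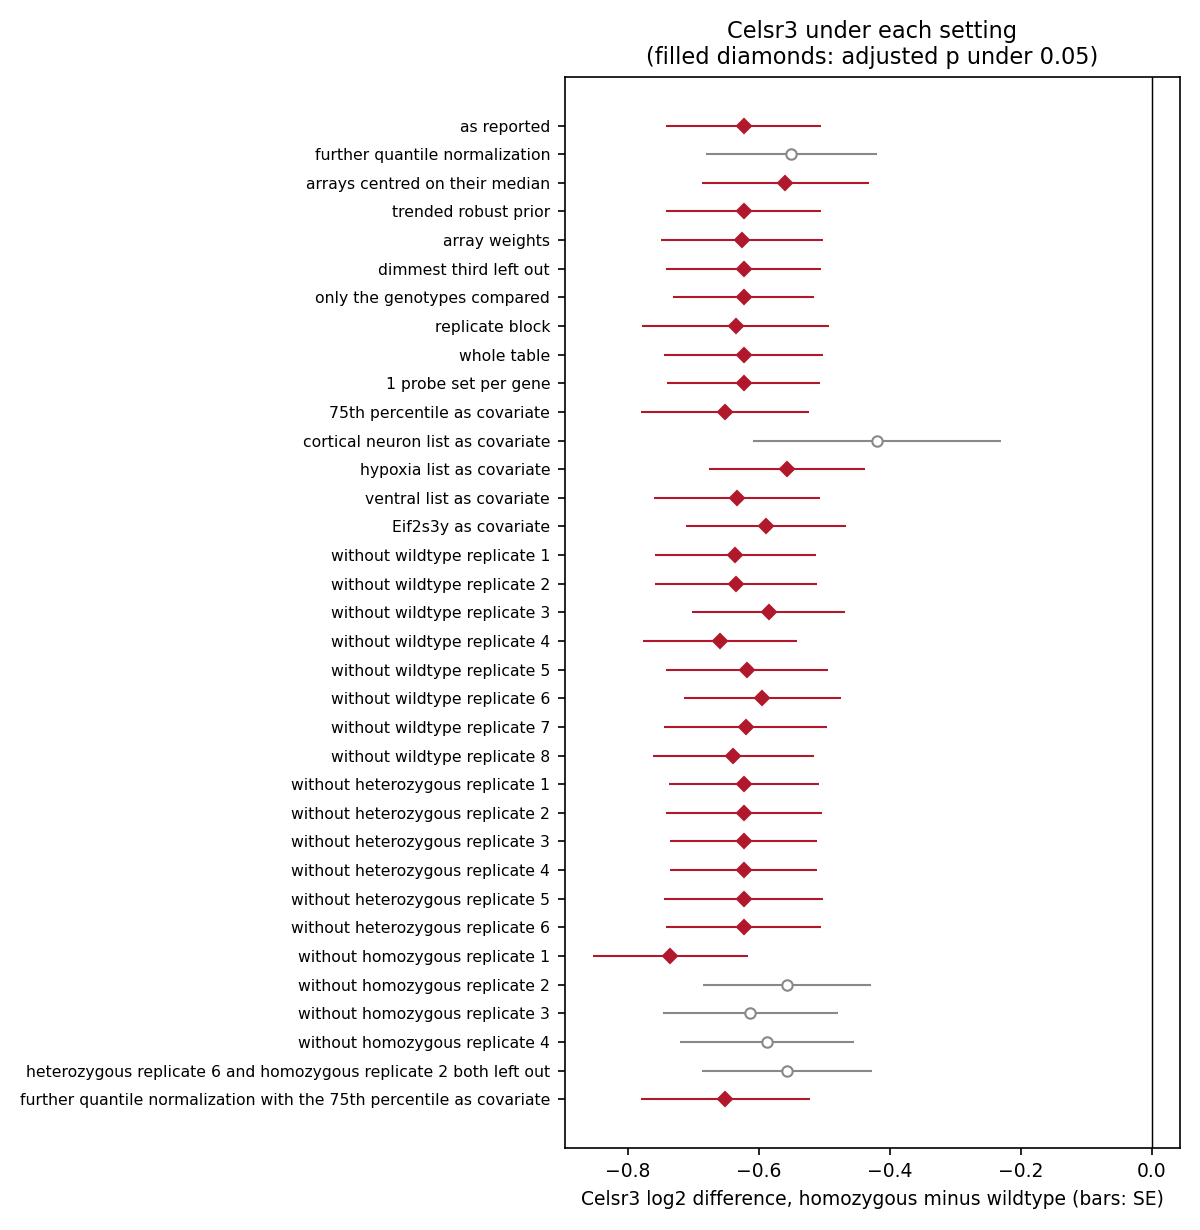
Log2 difference of Celsr3, homozygous minus wildtype, with its standard error (bars), for the reported fit and for each other setting, a line each. Filled diamonds mark an adjusted p under 0.05; the estimates run from -0.74 without homozygous replicate 1 to -0.42 with the cortical neuron list as covariate.

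Celsr1 showed a smaller difference in the same direction. Its level was 7.15, 6.89, 6.60 and 6.75 in homozygous replicates 1 to 4. Heterozygous embryos ran from 6.61 over a median of 6.92 to 7.10, and wildtype embryos from 6.85 over a median of 7.08 to 7.26. The 3 genotypes overlapped, and homozygous replicate 1 again had the highest level of its group. The difference between homozygous and wildtype embryos was -0.24 (SE 0.10, 95% interval -0.45 to -0.02), and the gene was not among those called. Leaving out homozygous replicate 3 gave -0.15, and leaving out homozygous replicate 1 gave -0.34.

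Vangl2, the main Vangl protein of the neural tube, differed little. Its level was 6.86, 6.94, 6.61 and 6.85 in homozygous replicates 1 to 4, against a wildtype range of 6.70 to 7.05 with a median of 6.88. Heterozygous embryos lay between 6.76 and 7.01, with a median of 6.87. The homozygous values fell within the wildtype range apart from replicate 3, the lowest of all 18. The difference between homozygous and wildtype embryos was -0.07 (SE 0.07, 95% interval -0.22 to 0.08).

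Vangl1, its close relative, gave a signal at the dim end of the arrays, where small changes cannot be seen. All embryos lay between 0.61 and 1.07, each below the median of its array over all probe sets, which was 2.25 at most. Homozygous embryos read 0.83, 0.90, 0.91 and 0.78. The heterozygous range was 0.61 to 1.05 (median 0.82) and the wildtype range 0.74 to 1.07 (median 0.87). The homozygous minus wildtype difference was -0.04 (SE 0.08), and its sign turned under some rescalings.

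Scrib encodes a scaffold with leucine-rich repeats and PDZ domains that binds Vangl2. It read 4.56, 4.43, 4.74 and 4.62 in homozygous replicates 1 to 4. The heterozygous range was 4.21 to 4.78 (median 4.56) and the wildtype range 4.50 to 4.76 (median 4.59). The genotypes overlapped, and the lowest value belonged to heterozygous replicate 6. The homozygous minus wildtype difference was -0.01 (SE 0.08, 95% interval -0.18 to 0.15), with a sign that also turned under some rescalings. The intervals of Vangl2 and Scrib do not show that the genes were unaffected.

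**Figure D2:**
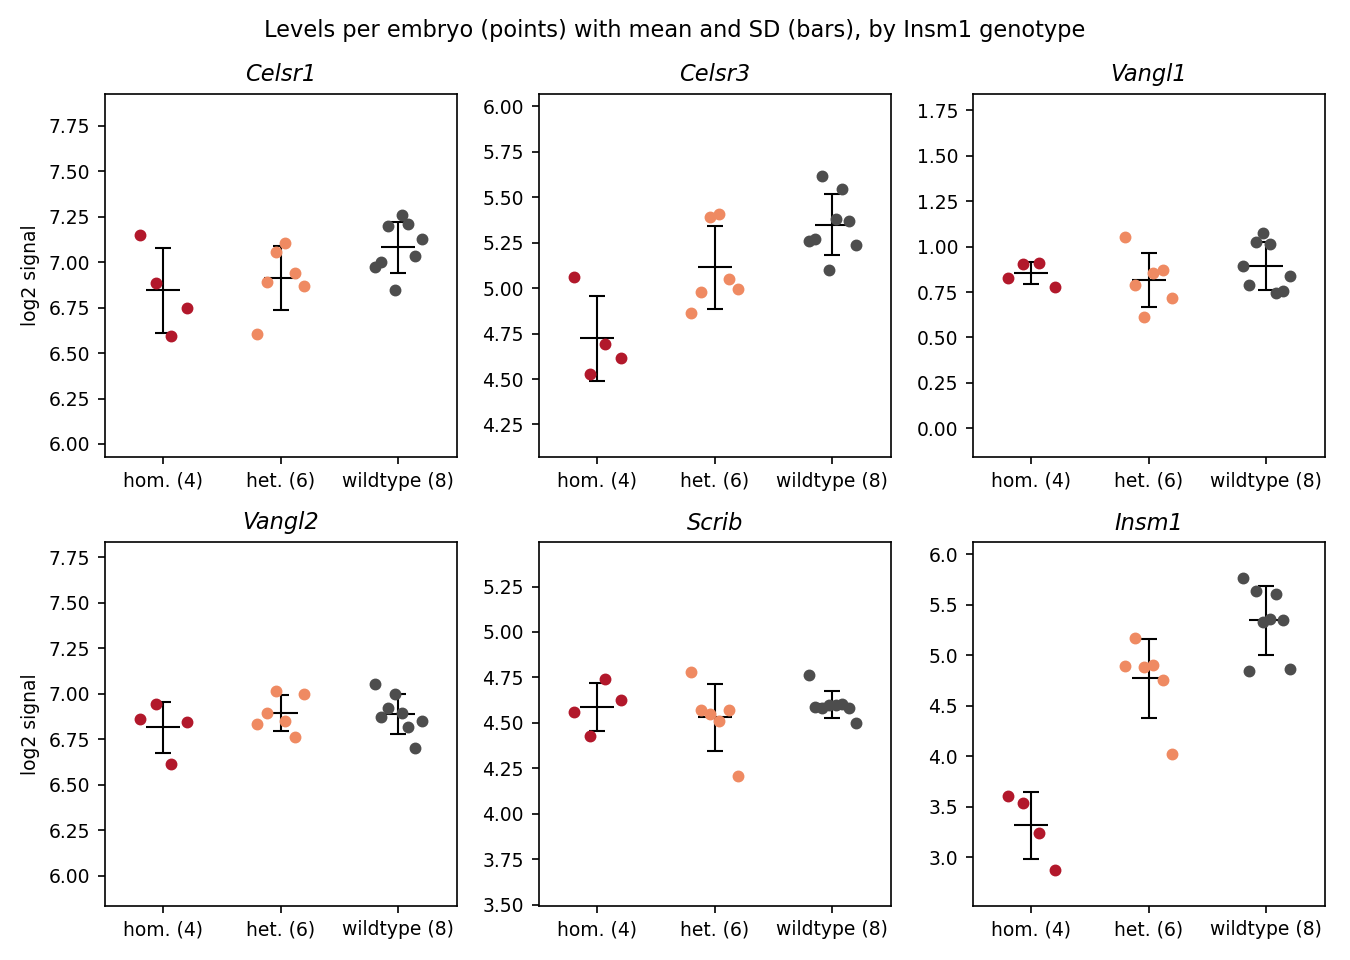
Log2 signal of the 5 measured members and of Insm1 in each embryo (points, in replicate order from left to right), by genotype, with mean and SD (bars). The Insm1 panel spans a wider range than the others; Celsr3 is the member whose homozygous (4.53 to 5.06) and wildtype (5.10 to 5.61) points do not overlap.

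For 1 of the 5 members, Celsr3, the homozygous range lay wholly below the wildtype range, as it did for 2.21% of all probe sets, with 2.48% separated in either direction. Over the 5 members the median difference was -0.07, against -0.03 over all probe sets, and all 5 means were lower, as were 59.1% of all probe sets. Taken within each array, Celsr3 minus Celsr1 ran from -2.36 to -1.90 in homozygous, from -1.92 to -1.66 in heterozygous and from -1.89 to -1.59 in wildtype embryos. The homozygous and heterozygous ranges overlapped, and the homozygous and wildtype ranges came close to each other. The value holds the same Celsr3 signals that chose the gene, and no support is drawn from it.

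The comparison of heterozygous with wildtype embryos asked what the loss of 1 allele did. No member was called, and neither was any other probe set (0% of 16661), although for 1245 the p before adjustment was under 0.05. The 8 wildtype arrays are shared with the comparison that chose the genes. Celsr3 had the largest difference of the members, -0.23 (SE 0.10, 95% interval -0.45 to -0.02, limma adjusted p = 0.66). Celsr1 differed by -0.17 (SE 0.09, adjusted p = 0.67). The other differences were -0.08 (SE 0.07) for Vangl1, 0.00 (SE 0.06) for Vangl2 and -0.07 (SE 0.07) for Scrib, with adjusted p between 0.76 and 0.99 in limma. Heterozygous and wildtype embryos overlapped in all 5 members, while 0.222% of all probe sets showed no overlap.

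Homozygous against heterozygous embryos gave no call among the 5 members, against 0.03% of all probe sets (0.018% lower and 0.012% higher), and all 5 overlapped, against 1.3% of probe sets that did not. This comparison shares the homozygous arrays with the one above and is not independent of it. Celsr3 differed by -0.39 (SE 0.12, 95% interval -0.65 to -0.13, limma adjusted p = 0.39), and Celsr1 by -0.07 (SE 0.11, adjusted p = 0.91). For Vangl1, Vangl2 and Scrib the values were 0.04, -0.08 and 0.06, each with an SE of 0.08, and adjusted p between 0.82 and 0.94. So the means of Celsr3 stood in the order homozygous, heterozygous, wildtype from low to high, but neither neighbouring pair passed the test, and each pair overlapped.

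Beyond genotype, Celsr1 and Celsr3 varied together from embryo to embryo. After the mean of each genotype was removed, their deviations had Pearson's r = 0.785 over 18 arrays (two-sided permutation within genotype, p = 0.0004, adjusted p = 0.008 over 20 relations) and Spearman's rho = 0.707 (p = 0.00322, adjusted p = 0.0545 by the same permutation test). Without heterozygous replicate 1 and homozygous replicate 1, the embryos farthest from the median of the Celsr1 deviations, r was 0.692. Within genotypes r was 0.886 in 6 heterozygous and 0.785 in 8 wildtype embryos. Among 6649 probe sets with 1 symbol and a mean of at least 3, 15 matched Celsr3 at least this closely, Celsr1 included (0.226%). In the reverse direction 23 matched Celsr1 at least as closely as Celsr3 did, Celsr3 included (0.346%). By level instead of deviation (r = 0.797) the counts were 60 for Celsr3 and 46 for Celsr1.

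The other 19 relations, which set members against each other, against the 75th percentile of the array or against the mean of the cortical neuron list, had an adjusted p of at least 0.0545 by permutation over 18 arrays. Those nearest to the threshold were with the 75th percentile of the array. For Vangl1 r was 0.64 (adjusted p = 0.107) and rho 0.68 (adjusted p = 0.0545), and for Scrib r was 0.65 (adjusted p = 0.107) and rho 0.54 (adjusted p = 0.162), in the same permutation test. For Celsr3 and the neuron list r was 0.32 (adjusted p = 0.428) and rho 0.26 (adjusted p = 0.614), and r was -0.02 without wildtype replicate 3 and heterozygous replicate 4.

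**Figure D3:**
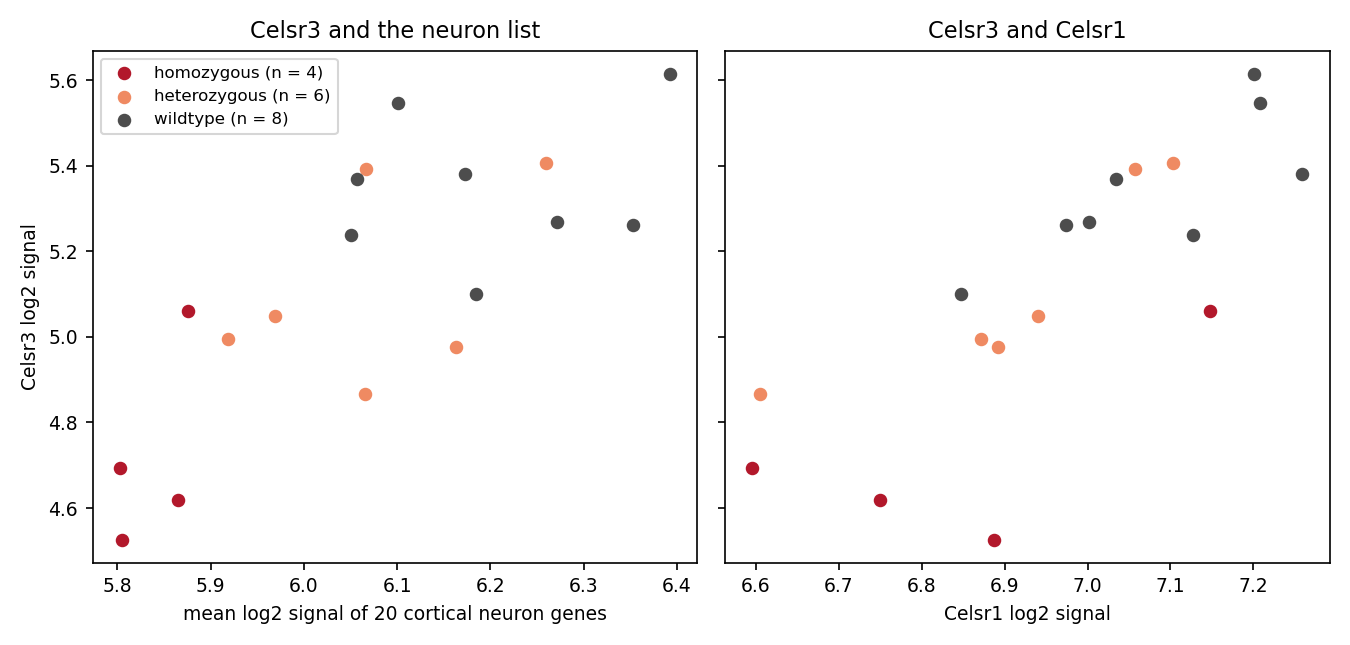
Log2 signal of Celsr3 in each embryo against the mean of 20 cortical neuron genes (left) and against Celsr1 (right), coloured by genotype. The homozygous embryos lie lowest on the neuron list (5.80 to 5.88), and at a given level of Celsr1 they lie lower in Celsr3 than most other embryos.

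Genes most like Celsr3 in level over the 18 arrays were the kinase gene Hipk1 (r = 0.93), the ubiquitin ligase gene Hecw1 (r = 0.91), the semaphorin receptor gene Plxna2 (r = 0.91), the translation regulator gene Cpeb4 (r = 0.91) and Ttc28 (r = 0.91). By deviations from the genotype means they were Plxna2 (r = 0.94), Tulp4 (r = 0.92), Hectd4 (r = 0.87), Hecw1 (r = 0.87) and Hipk1 (r = 0.85). For Celsr1 the closest in level were Marf1 (r = 0.92), Plxna2 (r = 0.90), Ttc28 (r = 0.88), Nbas (r = 0.86) and the plexin gene Plxna4 (r = 0.86). By deviations they were Marf1 (r = 0.90), Plxna2 (r = 0.88), Celf2 (r = 0.85), Plxna1 (r = 0.85) and Ttc28 (r = 0.84). Plxna2 was therefore among the 5 closest to both cadherins by either measure. These ranks describe 6649 probe sets on the same 18 arrays, which share their scale and any difference in RNA between embryos.

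Markers of cortical neurons were lower in homozygous embryos too. Celsr3 and this list were chosen with earlier results of these data known, so their shared direction is a description and carries no test. Of 20 measured genes of that list, 20 had a lower mean in homozygous embryos and 6 were called lower, against 59.1% and 0.504% of all probe sets. Their summed linear signal ran from 1906 to 1960 in homozygous, from 2051 to 2520 in heterozygous and from 2196 to 2714 in wildtype embryos, and 0 of the 20 were called higher. Among the other marker lists, 7 of 11 basal progenitor genes had a lower and 4 a higher homozygous mean, with 3 called lower and 0 higher. Of 9 Cajal-Retzius neuron genes 7 were lower and 2 higher in mean, with 1 called lower and 0 higher, and of 15 apical progenitor genes 4 were lower and 11 higher, with 0 called (median 0.11). Of the remaining marker lists some leaned in direction and others did not, with 0 genes called. Cortical hem and choroid plexus genes split 6 lower to 5 higher (median -0.006), and endothelium and pericyte genes 6 to 3 (median -0.02). Meninges and mesenchyme genes split 3 to 6 (median 0.02), and microglia and macrophage genes 2 to 4 (median 0.009). Erythroid genes split 0 to 3 (median 0.23). Of 8 ventral telencephalon and interneuron genes 7 were lower and 1 higher (median -0.16), at dim levels (array means 1.33 to 2.34). Of 9 hypoxia response genes 1 was lower and 8 higher (median 0.50), with 0 called. Among homozygous embryos replicate 2 alone stood high in the mean of this list, at 4.65. The other homozygous embryos ran from 3.28 to 3.38, and wildtype embryos from 3.13 to 3.52. Homozygous replicate 2 also had the highest apical progenitor mean, 6.89, against 6.60 to 6.68 in the other homozygous and 6.51 to 6.67 in wildtype embryos. With the mean of the cortical neuron list as a covariate the Celsr3 difference was -0.42 (SE 0.19, limma adjusted p = 0.50). The neuron list itself differs by genotype, and under the same covariate the call of Insm1 ended too (-1.50, adjusted p = 0.12). The part of the neuron genes in the Celsr3 difference therefore cannot be told apart from genotype. With the hypoxia list as covariate the Celsr3 difference was -0.56 (adjusted p = 0.048), and with the 75th percentile of the array it was -0.65 (adjusted p = 0.0198).

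Partners of the members were read from 5 further lists with 45 symbols, of which 38 were measured (Erbb2ip and Erbin name the same gene). These lists too were chosen with earlier results of these data known, so their homozygous against wildtype calls are a description. In homozygous against wildtype embryos 1 of the 38 was called lower and 0 higher, against 0.504% and 0.06% of all probe sets. In heterozygous against wildtype embryos, and in homozygous against heterozygous embryos, 0 of the 38 were called in limma, against 0% and 0.03% of all probe sets. An unadjusted p under 0.05 was found for 4 and 8 of the 38, and for 1245 and 1421 of the 16661 probe sets. Of the 38 genes, 29 had a lower mean in homozygous embryos, with a median difference of -0.08. After a further quantile normalization 23 were lower, against 50.9% of all probe sets.

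The gene called lower was Rac1, a small GTPase that drives actin remodelling downstream of Dishevelled. It read 7.49, 7.39, 7.83 and 8.18 in homozygous replicates 1 to 4, against 8.10 to 8.61 in wildtype embryos, with a median of 8.32. Heterozygous embryos lay between 7.95 and 8.44, with a median of 8.26. Homozygous replicates 1, 2 and 3 were below every other embryo, and replicate 4 overlapped the wildtype range. The difference was -0.62 (SE 0.13, limma adjusted p = 0.0286), and the call was lost in 13 of 36 alternatives. The call ended without homozygous replicate 2 (-0.51, adjusted p = 0.15) or 3 (-0.65, adjusted p = 0.077), without wildtype replicate 2, 3 or 4 (adjusted p = 0.053, 0.057 and 0.056), and with the 75th percentile (-0.52, adjusted p = 0.053), the hypoxia list (-0.53, adjusted p = 0.062), the ventral list (-0.55, adjusted p = 0.074) or the neuron list (-0.36, adjusted p = 0.59) as covariate. It also ended on the whole table of 23238 probe sets (adjusted p = 0.058) and without homozygous replicate 2 and heterozygous replicate 6 together (-0.51, adjusted p = 0.081).

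Some further partners outside the rule for named genes are given for context, chosen after their values were seen: Rhoa, Cdc42, Fuz, Rock1, Dvl1, Dvl2, Fzd6, Wnt5a and Ror2. Among the other effectors, the GTPases Rhoa and Cdc42 each differed by 0.00 (SE 0.06). Fuz, an effector of cilium formation, had a difference of 0.26 (SE 0.09, limma adjusted p = 0.153), with 3.39 to 3.65 in homozygous and 2.97 to 3.49 in wildtype embryos. It passed as higher after a further quantile normalization (0.34, limma adjusted p = 0.0186). Centring each array on its median gave 0.32 (adjusted p = 0.0374), and a model that held the 75th percentile gave 0.36 (adjusted p = 0.0228).

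Of 8 other core genes, 7 had a lower homozygous mean and 0 were called, against 59.1% and 0.564% of all probe sets. After a further quantile normalization 6 of the 8 were lower, against 50.9% of all probe sets. With the 75th percentile as covariate 5 were lower, against 49.2%. The Dishevelled gene Dvl3 came closest to a call, with -0.38 (SE 0.10, limma adjusted p = 0.086). Its homozygous values were 6.51, 5.84, 5.78 and 6.14, against 6.29 to 6.58 in wildtype embryos. Replicate 1, also the highest homozygous embryo in Celsr1 and Celsr3, stood inside the wildtype range. Without it Dvl3 passed (-0.53, limma adjusted p = 0.00407), but 394 probe sets were then called, against 94 with it. Dvl3 stayed uncalled in 34 of 36 alternatives, and leaving out 1 array gave an adjusted p of up to 0.29. Its relatives Dvl1 and Dvl2 differed by -0.04 (SE 0.07) and 0.01 (SE 0.06). Fzd3, the Frizzled receptor that acts with Celsr3 in axon tracts, differed by -0.21 (SE 0.09, adjusted p = 0.28), and its relative Fzd6 by -0.11 (SE 0.13).

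The Scribble module holds the scaffolds and exchange factors around Scrib. All 11 measured genes had a lower homozygous mean, with a median of -0.11, but 0 were called. Over all probe sets 59.1% had a lower mean and 0.564% were called. After a further quantile normalization 9 of 11 were lower, against 50.9% of all probe sets. After median centring 9 were lower, against 38.9%, and with the 75th percentile as covariate 8 were lower, against 49.2%. The membrane scaffold gene Dlg3 read 3.94, 3.81, 3.75 and 3.97 in homozygous embryos, against 3.98 to 4.34 in wildtype embryos. Its difference of -0.30 (SE 0.07) had a limma adjusted p of 0.0501, and it passed when arrays were centred on their median (-0.23, adjusted p = 0.0441) or quantile normalized again (-0.22, adjusted p = 0.0438). In all, Dlg3 passed in 13 of 36 alternatives and stayed uncalled in 23. Those 23 included the whole table of probe sets (adjusted p = 0.087) and a fit of only the 2 genotypes compared (adjusted p = 0.071). Arhgef7, an exchange factor for Rac1 and Cdc42 that binds Scrib, differed by -0.24 (SE 0.06, adjusted p = 0.0575), with 5.87 to 5.98 in homozygous and 6.07 to 6.25 in wildtype embryos. Of the 38 genes in all lists, 3 had every homozygous embryo below every wildtype embryo: Rock1, a kinase activated by Rhoa, Arhgef7 and Dlg3. The share over all probe sets was 2.21%.

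Ligands and co-receptors of non-canonical Wnt signalling, which orient planar polarity, followed no shared direction. Of 9 measured genes, 5 had a lower and 4 a higher homozygous mean, and 0 were called. Among all probe sets 59.1% had a lower mean and 0.564% were called. Their median difference of -0.06 turned to 0.02 after a further quantile normalization. The smallest unadjusted p values belonged to Wnt7a (0.14, SE 0.09, limma adjusted p = 0.50) and to Wnt4 (-0.08, SE 0.07, adjusted p = 0.65), whose signal was dim (homozygous mean 1.00, wildtype mean 1.08). Wnt5a, the best known of these ligands, differed by -0.08 (SE 0.11), and its receptor Ror2 by 0.02 (SE 0.09). Of 5 genes of the Fat and Dachsous system beside the members, 1 was measured: Fjx1, a homologue of the Drosophila kinase four-jointed, differed by 0.08 (SE 0.15, adjusted p = 0.86).

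**Figure D4:**
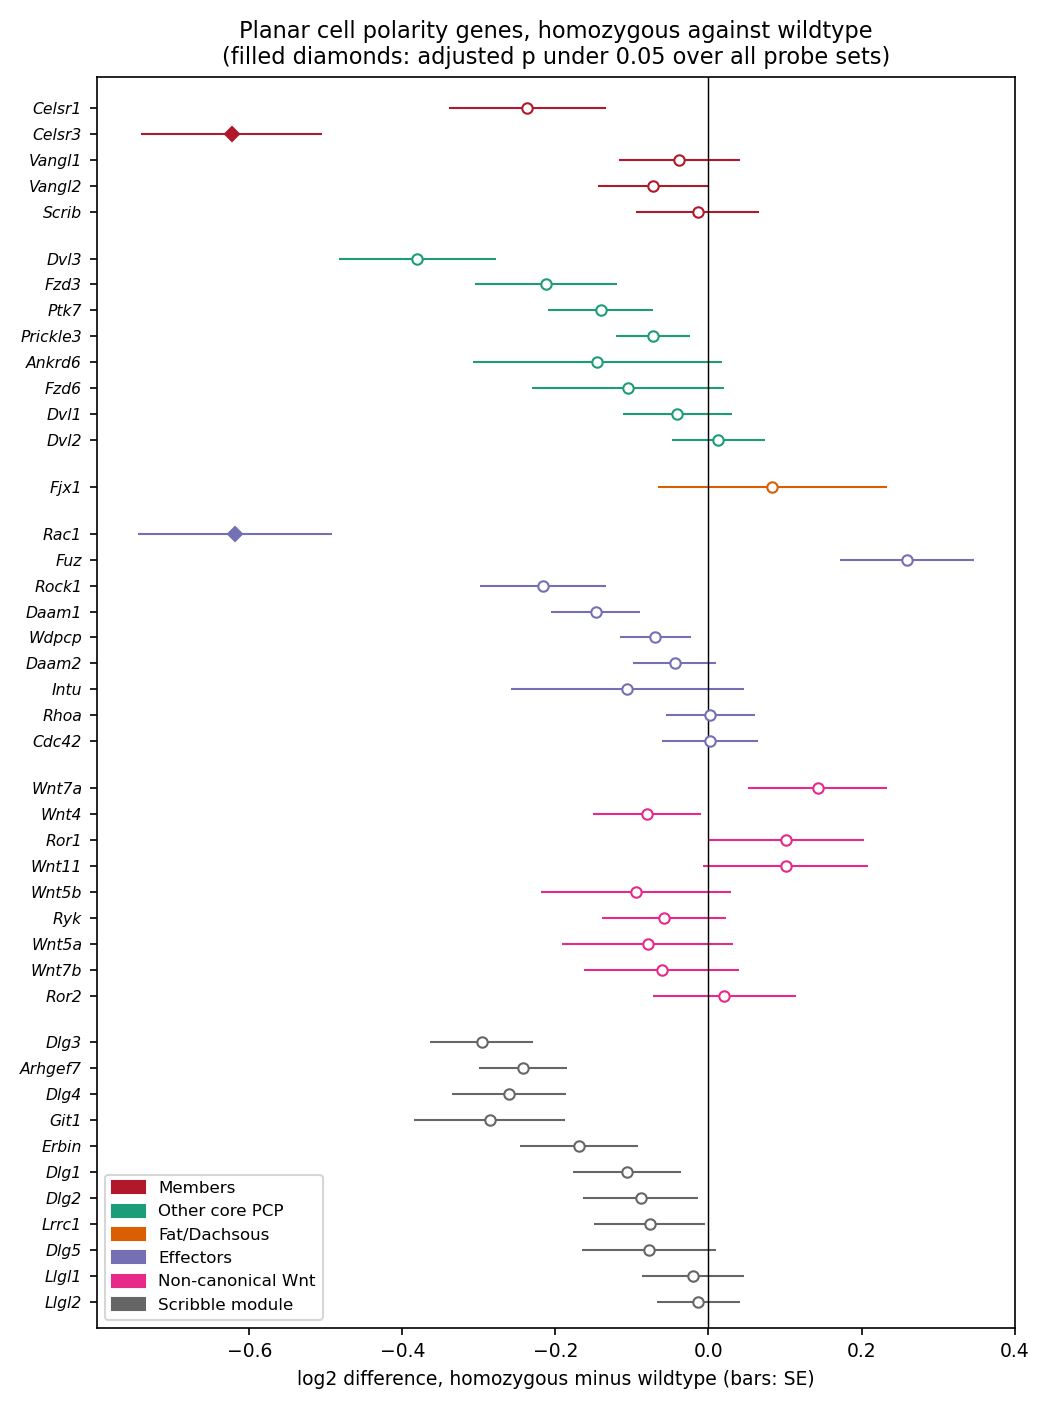
Log2 difference, homozygous minus wildtype, with its standard error (bars), for the 5 members and 38 partner genes, a line each, coloured by list. Filled diamonds mark an adjusted p under 0.05 over all probe sets, which Celsr3 (-0.62) and Rac1 (-0.62) reached; the Scribble module lies to the left of 0, and the Wnt genes lie on both sides.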

How the data were processed

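The deposited values are log2 signals, a value for each transcript-level probe set, which the authors made with RMA (no version) in Affymetrix Expression Console 1.1, per the submitters' processing notes. No source used here names their genome build. The log base was checked on the values: the lowest array maximum, 11.3, exceeds 11.1, the natural log of the largest 16-bit reading. Of 23238 probe sets, the 16661 with identifiers of 6700000 or above were tested. Of these 14939 carried 1 gene symbol, 989 several and 733 none in the platform's annotation. Genome positions came from a GRCm38.p6 table that held the gene IDs of 14884 of the 14939.

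All 18 arrays entered a single limma model (version 3.58.1, under R 4.3.3, two-sided moderated tests) holding the 3 genotype means, with Benjamini-Hochberg adjustment over 16661 probe sets and a threshold of 0.05. A list used 1 probe set per gene, that with the highest mean. Named partners were those called in any comparison, or else the 2 with the smallest unadjusted p in homozygous against wildtype embryos. Members and lists were chosen with earlier results of these data known. Correlations used 100000 permutations within genotype. The number of arrays limits the precision. On simulated data of the same size, homozygous against wildtype recovered 14 of 67 genes changed by -0.25, 48 of 67 by -0.5 and 63 of 66 by -1. The noise was drawn independently for each probe set and array, and 13 of the 138 calls were false. The real arrays share deviations (r = 0.44 between heterozygous replicate 6 and homozygous replicate 2), so these rates may not carry over to them. Identical arrays numbered 0.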

Additional observations from a re-analysis of the deposited data

Results flagged for a closer look

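Among 18 groups of values (5 members and Insm1 in 3 genotypes) 2 had an embryo far from the others of its group, where chance gives about 1 in 20. Scrib was at 4.76 in wildtype replicate 1, and the nearest wildtype embryo was at 4.60. Insm1 was at 4.02 in heterozygous replicate 6, and the nearest heterozygous embryo was at 4.76. The same array had the lowest 75th percentile (4.50) and the lowest Scrib value (4.21) of all 18.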

How the results depend on the processing

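The number of arrays and dim signal limit what these values show. Vangl1 lay near the floor. With 4 homozygous embryos a change of 0.25 went mostly undetected in a simulation with independent noise, which the real arrays do not have. In 36 alternatives 0 probe sets were called in heterozygous against wildtype embryos in limma. Celsr3 in homozygous against wildtype embryos lost its call in 7 of 36, a description only, since that call chose the gene: after quantile normalization (-0.55), with the neuron list as covariate (-0.42), without homozygous replicate 2 and heterozygous replicate 6 (-0.56), at a threshold of 0.01 (-0.62), and without homozygous replicate 2 (-0.56), 3 (-0.61) or 4 (-0.59). Leaving out 1 array gave -0.74 to -0.56, and the cause of lost calls was not tested.

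The count called in homozygous against wildtype embryos was 94. It was 158 after quantile normalization, 142 after median centring, 146 without the dimmest 1 in 3 probe sets, 173 with the 75th percentile, 3 with the neuron list and 60 with the ventral list as covariate, and 33 and 383 at thresholds of 0.01 and 0.1. It was 190 with quantile normalization and the 75th percentile together, a setting chosen after seeing the data. Higher against lower calls split 10 to 84 as reported, 84 to 74 after quantile normalization, 75 to 67 after centring and 99 to 74 with the 75th percentile. Leaving out 1 array gave 36 (without homozygous replicate 2) to 394 (without homozygous replicate 1). It was 37 without homozygous replicate 3, 369 without heterozygous replicate 6, 188 without wildtype replicate 7, and 62 and 60 without wildtype replicates 1 and 3.

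For homozygous against heterozygous embryos the count was 5 as reported, 21 after quantile normalization, 13 after centring, 3 with array weights, 2 with only these genotypes, 26 with the 75th percentile, 30 with both, 9 at a threshold of 0.1, and 1 to 31 when 1 array was left out (31 without homozygous replicate 1, 1 without homozygous replicate 4, 12 and 9 without heterozygous replicates 6 and 1).

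The labels tie the replicate numbers to no shared litter or day, and same-numbered arrays of different genotypes did not deviate together (r from -0.21 to 0.22, median 0.02, 14 pairs). With the replicate number as a block, 361 probe sets were called in homozygous against wildtype embryos, 76 of the 94 among them, 0 in heterozygous against wildtype and 1 in homozygous against heterozygous. The Celsr3 difference was then -0.64 (adjusted p = 0.0463), that of Fjx1 turned to -0.085, and Dlg3 (-0.35) and Arhgef7 (-0.27) passed.

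Differences near 0 changed sign without a call. Scrib in homozygous against wildtype embryos was 0.066 after quantile normalization, 0.050 after centring, 0.069 with the 75th percentile, 0.071 with both, 0.13 with the neuron, 0.064 with the hypoxia and 0.046 with the ventral list, 0.040 without homozygous replicate 2 and heterozygous replicate 6, and -0.065 to 0.040 when 1 array was left out. In heterozygous against wildtype embryos it was 0.018 after quantile normalization, 0.023 with the 75th percentile and 0.024 with both. Vangl1 in homozygous against wildtype embryos was 0.026 after centring, 0.041 with the 75th percentile with or without quantile normalization, 0.074 with the neuron and 0.0056 with the ventral list. In heterozygous against wildtype embryos it was 0.013 with the 75th percentile. Vangl2 in heterozygous against wildtype embryos was -0.025 with array weights, -0.033 with the block and with the hypoxia list, -0.0075 with quantile normalization and the 75th percentile, -0.017 without the same 2 arrays, -0.00063 with the ventral list, and -0.022 to 0.030 when 1 array was left out. In homozygous against wildtype embryos Vangl2 was 0.038 and Wnt4 0.064 with the neuron list. In homozygous against heterozygous embryos, leaving out 1 array gave -0.0078 to 0.11 for Scrib, -0.0029 to 0.085 for Vangl1 and -0.17 to 0.017 for Celsr1.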
